A study of Mus musculus with 7 samples.

Results

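Peg3, Usp29, Zim1, Meg3, Rian, Dlk1, Asb4, Peg10, Mest and Sgce are imprinted genes, which are transcribed mainly or only from the allele inherited from 1 parent. They were followed in the soleus, a postural muscle of the mouse hindlimb, through all 20 probe sets that the platform annotation assigns to 1 of these 10 genes alone, out of 22626 probe sets that are no controls. The 10 genes stand among 12393 genes on the array. Total RNA made up 3 samples labelled as wild type and 4 labelled as Yin Yang 1 (YY1) knockout, all from mice aged 6 months and on a mixed background of C57Bl/6 and 129. Each sample was read on a one-colour Affymetrix array. Which part of Yy1 was deleted, in which cells and with which driver is not stated in the labels. The 10 genes were chosen by their measured difference between knockout and wild type on these same arrays, so their differences are given below as a description, without p-values.

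Imprinting is set in the germ line by DNA methylation at control regions, which then govern several neighbouring genes at once, some expressed from the paternal and some from the maternal allele. Peg3, a paternally expressed zinc finger gene, shares its control region with the paternally expressed Usp29 and the maternally expressed Zim1, and this region carries known binding sites for YY1, a zinc finger transcription factor. In the Dlk1-Meg3 cluster, Dlk1 is expressed from the paternal allele, while the noncoding Meg3 and Rian come from the maternal one. Dlk1 is known in muscle from the callipyge sheep, whose hindquarter muscles are enlarged. Asb4 is a maternally expressed gene near the paternally expressed pair Sgce and Peg10, and Mest is a paternally expressed gene farther along the same chromosome.

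The promoters of Peg3, Meg3 and Asb4, the 3 genes with the widest differences among the 10, are shown from RefSeq's GRCm38 assembly, each from 250 bases before to 50 bases after a transcription start. The Peg3 window lies at chr7:6730370-6730669 on the minus strand. The Meg3 window, the first of 2 listed, lies at chr12:109540746-109541045 on the plus strand. The Asb4 window, also the first of 2, lies at chr6:5383136-5383435 on the plus strand. Capitals mark TGACGTCA, the palindrome bound by CREB and ATF proteins, and ATGGCG, the reverse complement of CGCCAT, which is part of the YY1 recognition sequence.
Peg3: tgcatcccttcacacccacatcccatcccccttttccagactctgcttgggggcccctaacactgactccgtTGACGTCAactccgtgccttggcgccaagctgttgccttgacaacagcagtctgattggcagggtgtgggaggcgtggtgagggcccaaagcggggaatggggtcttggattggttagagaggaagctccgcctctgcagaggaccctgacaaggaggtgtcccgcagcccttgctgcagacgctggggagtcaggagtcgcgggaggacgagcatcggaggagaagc
Meg3: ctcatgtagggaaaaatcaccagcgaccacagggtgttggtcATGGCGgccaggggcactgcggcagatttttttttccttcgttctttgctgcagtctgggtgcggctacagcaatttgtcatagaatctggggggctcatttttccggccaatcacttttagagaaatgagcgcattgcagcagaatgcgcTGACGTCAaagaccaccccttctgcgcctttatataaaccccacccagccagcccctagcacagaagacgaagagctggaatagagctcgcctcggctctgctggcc
Asb4: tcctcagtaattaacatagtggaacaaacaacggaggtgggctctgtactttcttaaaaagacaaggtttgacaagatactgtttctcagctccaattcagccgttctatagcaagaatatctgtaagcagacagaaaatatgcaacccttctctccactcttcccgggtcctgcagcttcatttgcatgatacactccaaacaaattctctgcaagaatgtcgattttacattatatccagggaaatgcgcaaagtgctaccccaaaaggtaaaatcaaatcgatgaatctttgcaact

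Of the 10 genes, 8 had a promoter in the RefSeq table, in 12 windows, some overlapping, and Sgce and Peg10 had no entry there. The Peg3 and Usp29 windows shared 263 bases of the same DNA on opposite strands, with 164 bases between the starts. TGACGTCA, searched after the sequences had been seen, stood in the Peg3 window, in the Usp29 window (the same copy) and in the first Meg3 window, and in 1.79% of all 32851 promoters. CGCCAT, on either strand, was found in the first Meg3 window and in 8.93% of all promoters. The longer YY1 core AANATGGC, on either strand, was in none of the 12 windows and in 6.05% of all promoters. The windows end 50 bases after a start, so sites farther into a gene or elsewhere in a control region were not searched. These matches describe letters in the windows and do not measure binding.

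Yy1, the targeted gene, was lower in every knockout array. By its brightest probe set it read 9.32, 9.20 and 9.62 on the wild type arrays 1 to 3, in log2(intensity + 1), the scale of all levels here. On the knockout arrays 1 to 4 it read 8.39, 8.24, 8.48 and 8.29. The difference was -1.02 log2 units (SE 0.10, limma adjusted p = 0.000213; two-sided exact permutation p = 0.0286, the smallest that 3 arrays against 4 can give). Its other 3 probe sets differed by -1.70, -0.77 and -0.06. Over all genes, 32.9% passed the threshold of 0.05 on limma's adjusted p, 17.0% higher and 16.0% lower in knockout, and the median change was 0.01. By probe set, 28.6% passed.

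Of the 10 imprinted genes, 3 were called higher (Peg3, Meg3 and Rian), 1 lower (Asb4), and 6 were not called, by their brightest probe sets. That is 4 of 10 beside 32.9% of all genes, and, since the contrast chose the genes, nothing is read from the count. The arrays of the groups did not overlap for 5 of the 10, beside 39.5% of all genes. The median change of the 10 was 0.06 and the median size of their changes 0.26, beside 0.15 for all genes. The plot of levels by array shows each gene in turn.

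**Figure D1:**
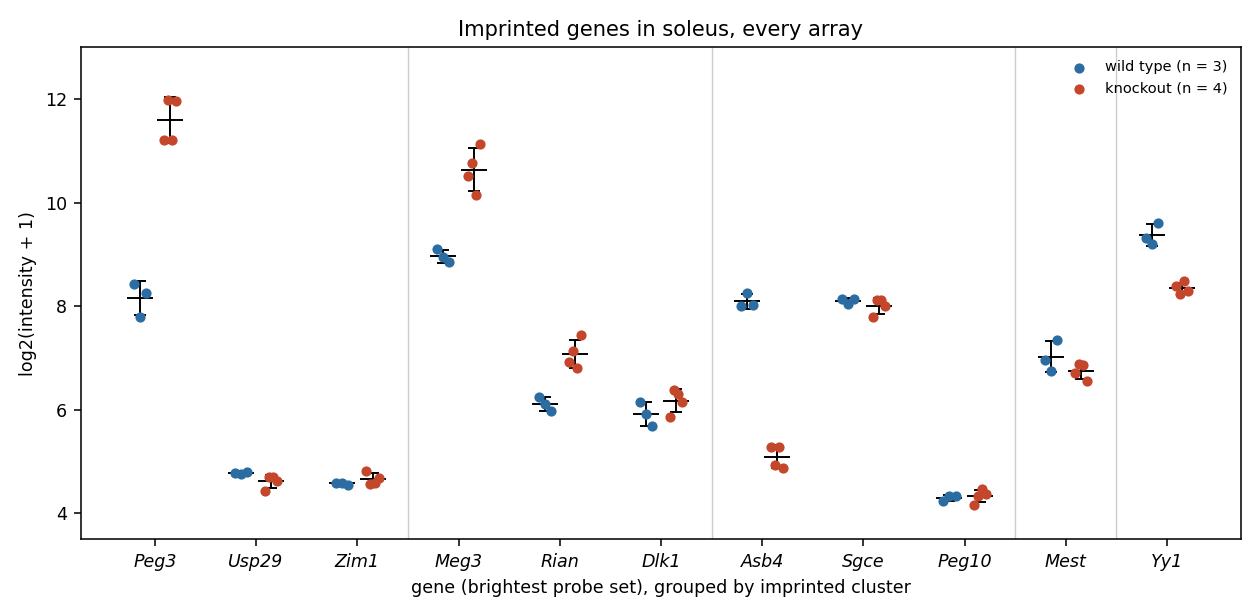
Level of each imprinted gene and of Yy1 on every array, as log2(intensity + 1) of the gene's brightest probe set. Points are arrays (wild type, n = 3; knockout, n = 4) and bars the mean ± SD; vertical lines separate the imprinted clusters. Peg3, Meg3 and Rian sit higher and Asb4 and Yy1 lower in knockout with no overlap, and Zim1, Dlk1, Sgce, Peg10 and Mest overlap.

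Peg3 was the member with the largest difference and was higher in knockout by about the same amount in all 3 of its probe sets. The brightest (1433924_at) read 8.44, 7.79 and 8.25 on the wild type arrays and 11.20, 11.98, 11.21 and 11.97 on the knockout arrays. The groups were far apart, and knockout arrays 2 and 4 lay above knockout arrays 1 and 3. The difference was 3.43 log2 units (SE 0.24), or 10.8-fold, from 8.16 ± 0.33 (SD, n = 3) to 11.59 ± 0.44 (SD, n = 4). The other Peg3 probe sets differed by 3.28 (SE 0.20) and 3.06 (SE 0.21), and in both of them knockout arrays 2 and 4 were again the highest.

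Usp29, which encodes a ubiquitin-specific protease and starts beside Peg3 on the opposite strand, was dim on every array and showed no such difference. Its 2 probe sets stayed between 4.26 and 4.79, beside a mean level of 7.66 for the median gene. The brighter Usp29 probe set read 4.78, 4.76 and 4.79 in wild type and 4.44, 4.70, 4.70 and 4.62 in knockout, a difference of -0.16 (SE 0.07; 95% interval -0.33 to 0.01). The groups did not overlap there, with knockout lower, but the dimmer probe set pointed the other way, at 0.13 (SE 0.09), with overlap. Zim1, the maternally expressed zinc finger gene on the other side of Peg3, read 4.60, 4.60 and 4.55 in wild type and 4.81, 4.58, 4.60 and 4.68 in knockout. Its groups overlapped, and the difference was 0.09 (95% interval -0.07 to 0.24). No detection call was used, so for Usp29 and Zim1 a change at or under the background of the array would not be visible.

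In the Dlk1-Meg3 cluster both noncoding, maternally expressed genes were higher in knockout, and Dlk1 was not called. Meg3, a long noncoding RNA, read 9.10, 8.96 and 8.85 on the wild type arrays and 10.52, 10.76, 10.15 and 11.13 on the knockout arrays by its brightest probe set. Every knockout array lay above every wild type array, with array 4 the highest and array 3 the lowest of the knockouts. The difference was 1.67 log2 units (SE 0.20), or 3.19-fold. The suffix of this probe set (1439380_x_at) marks probes that can match other sequences, and the next brightest pair gave like values of 1.73 (SE 0.19) and 1.53 (SE 0.19). The 2 dimmest Meg3 probe sets gave 0.12 (SE 0.10) and 0.60 (SE 0.27), with overlapping groups, so the probe sets of Meg3 disagree in size.

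Rian, a noncoding transcript whose introns hold small nucleolar RNAs, followed Meg3 at a lower size of change. It read 6.24, 6.12 and 5.98 in wild type and 6.93, 7.13, 6.82 and 7.45 in knockout, a difference of 0.96 (SE 0.14) or 1.95-fold. Its other probe sets differed by 0.70 (SE 0.11) and 0.24 (SE 0.05), and the average of the 3 by 0.63. The groups did not overlap in any of the 3. As with Meg3, knockout array 4 was the highest and array 3 the lowest by the brightest Rian probe set.

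Dlk1, a transmembrane protein with epidermal growth factor repeats, read 6.16, 5.92 and 5.70 in wild type and 5.87, 6.37, 6.31 and 6.15 in knockout. The groups overlapped, and the difference was 0.25 (SE 0.14, 95% interval -0.07 to 0.58). Leaving out 1 array gave 0.14 to 0.37, the lowest being that without wild type array 3. Dlk1 is represented by 1 probe set, so no second reading was at hand.

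Asb4 was the only one of the 10 called lower. Its product is an ankyrin repeat and SOCS box protein, the substrate-binding part of a ubiquitin ligase, known from blood vessel development. The brighter probe set (1433919_at) read 8.0, 8.27 and 8.02 in wild type and 5.28, 4.94, 5.28 and 4.87 in knockout. The groups lay far apart, with knockout arrays 2 and 4 the lowest. The difference was -3.0 log2 units (SE 0.12), which left 12.5% of the wild type signal, and the second probe set gave -2.15 (SE 0.16), which left 22.5%. Both Asb4 probe sets ended at a similar dim level in knockout, 5.09 ± 0.22 and 5.05 ± 0.21 (SD, n = 4), and whether that level is above background was not assessed.

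Sgce, of the membrane protein epsilon-sarcoglycan, did not follow Asb4. It read 8.13, 8.05 and 8.13 in wild type and 7.79, 8.13, 8.12 and 8.0 in knockout, with overlap and a difference of -0.10 (SE 0.09; 95% interval -0.30 to 0.10). Peg10, a gene derived from a retrotransposon that starts next to Sgce, stayed between 4.17 and 4.47 on all 7 arrays (0.03, 95% interval -0.14 to 0.21). Sgce was measured at a level above that of the median gene, and Peg10 far below it.

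Mest, a paternally expressed member of the alpha/beta hydrolase family, read 6.96, 6.76 and 7.36 in wild type and 6.71, 6.88, 6.86 and 6.56 in knockout. The groups overlapped, and wild type array 3 was the highest. The difference was -0.27 (SE 0.14, 95% interval -0.60 to 0.05). Leaving out 1 array gave -0.41 to -0.11, the value nearest 0 being that without wild type array 3.

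**Figure D2:**
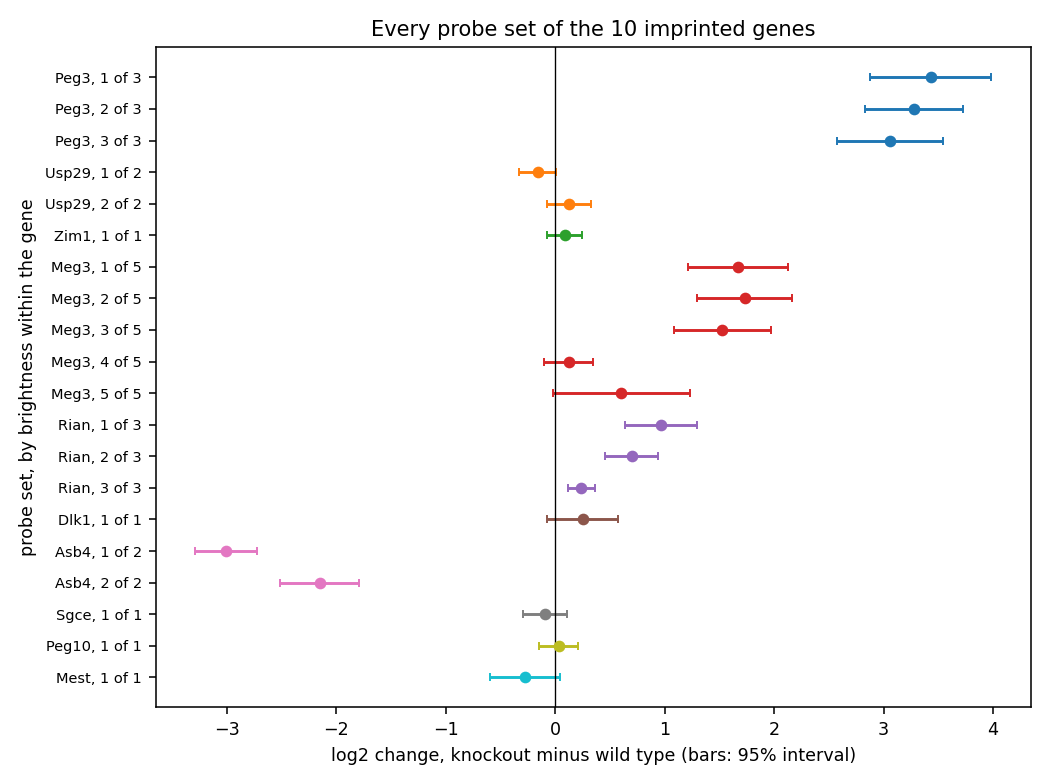
Log2 change, knockout minus wild type, of every probe set of the 10 imprinted genes, with its 95% interval from the fit; probe sets are ordered by brightness within a gene. All 3 Peg3 probe sets lie above 3, both Asb4 probe sets below -2, and the 2 dimmest Meg3 probe sets near 0.12 and 0.60.

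By probe set, 9 of 20 were called higher, all of Peg3, Meg3 or Rian, and 2 were called lower, both of Asb4. Among all probe sets, the shares called were 14.3% for rises and 14.3% for falls. Knockout and wild type values stayed apart in 12 of 20 probe sets, beside 36.4% of all. The contrast chose the genes, and several of these probe sets read the same gene, so nothing is read from these counts either. The order of the knockout arrays was set beside the level of Yy1. The brightest Yy1 probe set was lowest on knockout arrays 2 and 4, those with the most Peg3 and least Asb4. The second Yy1 probe set read 8.41, 7.83, 7.83 and 8.10 on knockout arrays 1 to 4, a different order. With 4 arrays neither order was tested.

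Neighbouring genes were then compared, taking along each chromosome the 10 measured genes on each side of a cluster and those between its members, in the order of the RefSeq table. Of 83 neighbours, 12 rose and 18 fell, Yy1 among the latter (14.5% and 21.7%), beside 17.0% and 16.0% of all genes, with a median change of 0.03. Without wild type array 2 only 7 rose. The largest rise among them was 1.52 and the largest fall -1.71, against 3.43 for Peg3 and -3.0 for Asb4. The plot of genes in chromosome order shows these clusters.

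**Figure D3:**
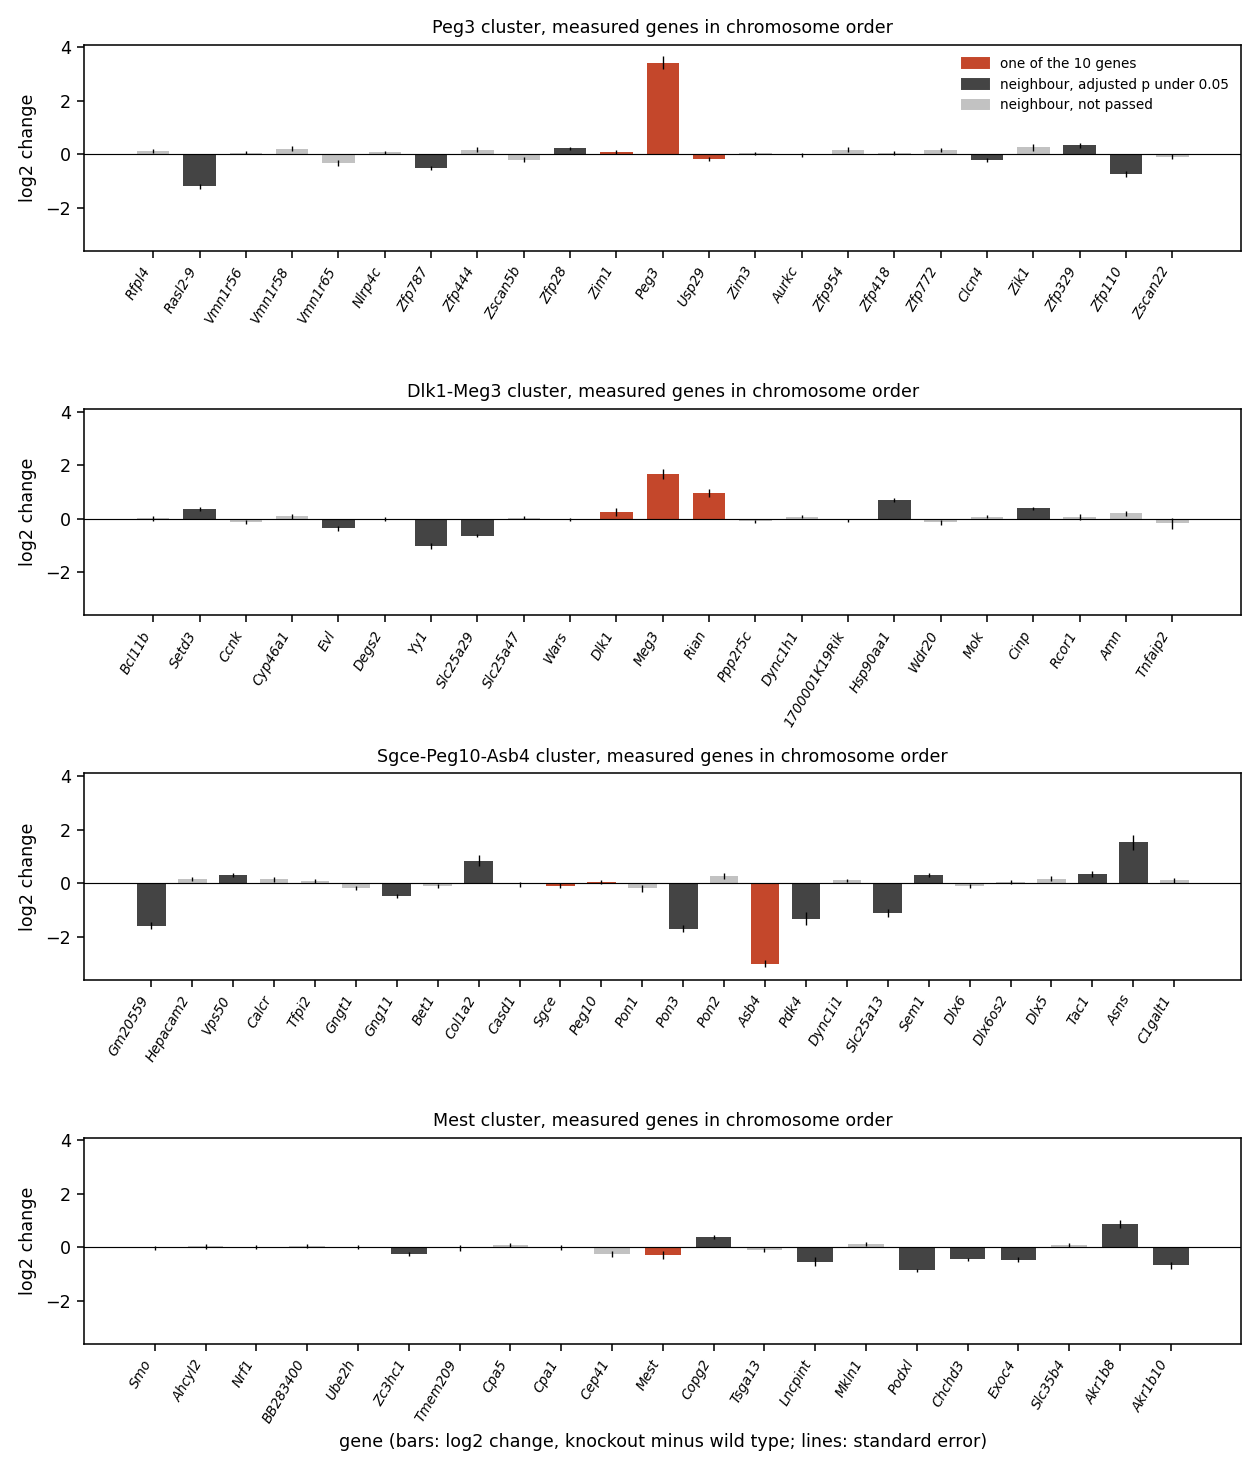
Log2 change, knockout minus wild type, of the measured genes of each cluster in chromosome order (bars, with the standard error as a line). The 10 imprinted genes are in red, neighbours past the threshold in dark grey and others in light grey. Peg3 (3.43) stands between genes with changes of 0.09 and -0.16, and Asb4 (-3.0) lies near Pon3 (-1.71) and Pdk4 (-1.32).

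Around Peg3, 6 of 20 neighbours were called (30%, beside 32.9% of all genes), 2 higher and 4 lower. Without wild type array 1 only 1 was called higher, and without wild type array 2 or 3 none was. The nearest measured gene beyond Usp29, the zinc finger gene Zim3, read 0.05 (SE 0.06). The only neighbour there with a change of at least 1 was Rasl2-9, a Ran-like gene, which fell from 7.30 ± 0.15 (SD, n = 3) to 6.11 ± 0.13 (SD, n = 4), a change of -1.19 (SE 0.09, limma adjusted p = 8.1e-05). It was the second of the 10 genes on its side, counting from the far end.

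Around Dlk1 and Meg3, 6 of 20 neighbours were called (30%, beside 32.9% of all genes), 3 in each direction. Yy1 itself is one of them: by the RefSeq order it lies on the same chromosome, with 3 measured genes between it and Dlk1. Of these, Slc25a29, a mitochondrial carrier and the nearest to Yy1, fell by 0.63 (SE 0.06, limma adjusted p = 0.000155), and Wars, of the cytosolic tryptophanyl-tRNA synthetase, read -0.03 (SE 0.06). Slc25a47, the other, read 0.03 (SE 0.05), with the same value on all 4 knockout arrays. These genes are named for their place. Which strain this stretch of the chromosome came from in either group is not stated in the labels.

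Around Sgce, Peg10 and Asb4, 10 of 23 neighbours were called (43.5%, beside 32.9% of all genes), 5 in each direction. The number higher was 2 without wild type array 2, and 3 without any one of knockout array 2 and wild type arrays 1 and 3. Near Asb4, called genes lay on both sides. Pon3, a lactonase of the paraoxonase family, fell from 8.35 ± 0.16 (SD, n = 3) to 6.65 ± 0.23 (SD, n = 4), a change of -1.71 (SE 0.13, limma adjusted p = 7.02e-05). Between Pon3 and Asb4, Pon2 read 0.26 (SE 0.11) and did not pass. On the far side, Pdk4, the kinase that shuts down pyruvate dehydrogenase, fell by 1.32 (SE 0.23) and Slc25a13, the mitochondrial aspartate-glutamate carrier, by 1.12 (SE 0.13). Gm20559 read -1.59 (SE 0.13; a second probe set gave 0.00, the average -0.79), while Asns, of asparagine synthetase, rose by 1.52 (SE 0.27). Casd1, the neighbour of Sgce, read -0.05 (SE 0.10).

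Around Mest, 8 of 20 neighbours were called (40%, beside 32.9% of all genes), 2 higher and 6 lower, and none changed by 1 or more. Copg2, a coatomer gene whose end overlaps that of Mest on the opposite strand, rose by 0.39 (SE 0.08, limma adjusted p = 0.00727). Ube2h (0.01, SE 0.08) and Ahcyl2 (0.04, SE 0.09) had the smallest changes there among genes with a mean level above that of the median gene, 7.66.

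Imprinted genes of other clusters were taken from a list written from general knowledge, some of them imprinted only in certain tissues such as placenta, brain or heart. Of 56 listed, 44 were measured, and 13 rose, 4 fell and 27 did not pass, with a median change of 0.08. The shares are 29.5% higher and 9.09% lower, beside 17.0% and 16.0% of all genes. The list was chosen with earlier results of these data known, so nothing is read from these shares. With the other genes listed for the 4 clusters, Yy1 among them, 15 of 67 rose and 8 fell.

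Igf2, the paternally expressed growth factor of fetal growth, had the largest change on the list. It read 9.16, 9.08 and 9.38 in wild type and 13.07, 14.11, 13.52 and 13.80 in knockout. All knockout arrays lay above all wild type arrays. The group means differed by 4.42 (SE 0.21, limma adjusted p = 2.88e-05), and a second probe set gave 1.13, which made 2.77 on average. Igf2r, the maternally expressed receptor that takes Igf2 up for breakdown, rose by 0.70 (SE 0.09, limma adjusted p = 0.000651). Airn, the paternal noncoding transcript that runs against Igf2r, read 0.00 (SE 0.11).

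Ddc, of aromatic amino acid decarboxylase, rose by 1.43 (SE 0.23; 0.92 with a pseudocount of 32) and its neighbour Grb10, an adaptor that restrains insulin receptor signalling, by 0.46 (SE 0.11). Gatm, the first enzyme of creatine synthesis, rose by 1.07 (SE 0.17). The largest fall on the list was in Blcap, which changed from 9.57 ± 0.02 (SD, n = 3) to 8.46 ± 0.27 (SD, n = 4), by -1.11 (SE 0.13, limma adjusted p = 0.000395). The other 10 that rose changed by 0.23 to 0.70, and the other 3 that fell by -0.56 to -0.29. Impact, a paternally expressed regulator of translation, had a mean level above that of the median gene and read 0.01 (SE 0.08).

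**Figure D4:**
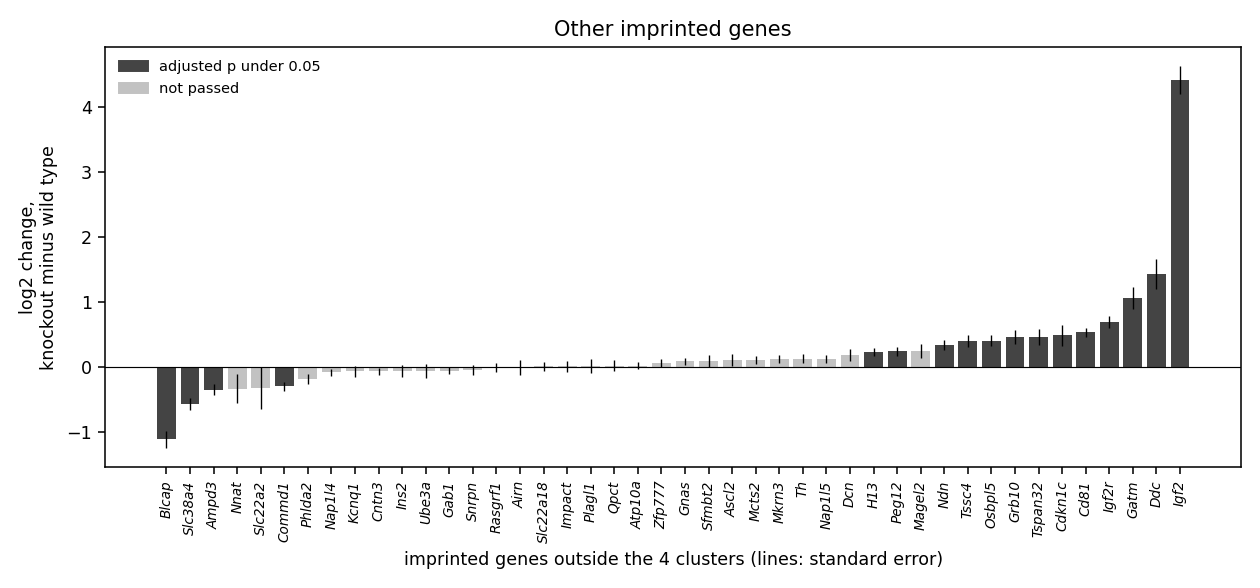
Log2 change, knockout minus wild type, of 44 imprinted genes outside the 4 clusters, in order of change, with the standard error as a line; dark bars passed an adjusted p of 0.05. Igf2 stands at 4.42, 13 genes rose and 4 fell.

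The genes whose 7 values, each taken relative to its own wild type mean, lay closest to those of Peg3 were Myh8, the perinatal myosin heavy chain (root mean square difference 0.25 log2 units over 7 arrays), C1qtnf3 (0.36), Postn, of the matrix protein periostin (0.37), Mybph (0.39) and Sln, of sarcolipin (0.41). For Asb4 they were Plbd1 (0.15), Aqp4, of a water channel (0.22), Il15, a cytokine gene (0.32), Amph (0.36) and As3mt (0.38). With 2 groups far apart, this measure is set mainly by the size of the genotype difference.

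Markers of several other cell types differed between the groups as well. In whole muscle a change in the number of cells and a change in RNA per cell cannot be told apart. Each count of markers below is to be read beside the shares of all genes, 17.0% higher and 16.0% lower. Muscle fibre genes were bright in all arrays, as the tissue label says: the summed intensity of 11 such genes was 408108 to 420658 in wild type and 393341 to 410196 in knockout, and 3 rose and 5 fell. Their mean levels were 14.13 to 15.60, close to the highest value on any array, 15.63. Whether their signal was saturated was not assessed. Beside the higher Peg3, Meg3 and Rian, 7 of 9 markers of developing and regenerating fibres rose (summed intensity 5929 to 6408 in wild type and 13771 to 19982 in knockout). Of these, Myog rose by 2.86 (SE 0.17) and Ncam1 by 2.12 (SE 0.14; 1.27 with its probe sets averaged). On knockout arrays 1 to 4 the sums were 13771, 19779, 15124 and 19982, with arrays 2 and 4 highest. Among the 13 imprinted genes of other clusters that rose, the order of the knockout arrays differed. Igf2 and Gatm were also highest on arrays 2 and 4, while Cd81, Tssc4, Ndn and H13 were highest on array 3. With 4 arrays no order was tested.

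Markers of fibroblasts rose in 7 of 10 cases, summing to 31184 to 36858 in wild type and 40596 to 55864 in knockout, among them Col1a1, a chain of fibrillar collagen, by 0.96 (SE 0.16) and Gsn by 0.49 (SE 0.08). With its probe sets averaged, Gsn read 0.23 and lost its call (limma adjusted p = 0.0669). Of macrophage markers 11 of 11 rose, Cd68 by 2.05 (SE 0.13) and Ptprc by 1.72 (SE 0.16) among them, with sums of 3708 to 4509 and 8078 to 13576. Tendon markers rose in 4 of 5 cases, including Comp by 1.75 (SE 0.15) and Scx by 0.74 (SE 0.12), with sums of 5480 to 5855 and 7664 to 12866. Fibroblast and macrophage sums were highest on knockout array 3, where Meg3 and Rian were lowest among the knockouts, an order that was not tested. Of 10 satellite cell markers, 3 rose and 2 fell (30% and 20%, beside 17.0% and 16.0% of all genes). Myf5 read 0.52 (SE 0.10) and Chrdl2 -0.96 (SE 0.12), and the sums of the 10 overlapped (3637 to 3814 and 3306 to 3835). The part of these cells in the Peg3, Meg3 and Rian values was not tested.

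Beside the lower Asb4, 9 of 10 endothelial markers fell and none rose, with Cdh5 at -1.04 (SE 0.08; -0.62 with its probe sets averaged) and Tie1 at -0.96 (SE 0.07). The endothelial sums were 5620 to 6127 in wild type and 2954 to 3261 in knockout, and the median change of the 10 was -0.91. On knockout arrays 1 to 4 the sums were 2954, 3223, 3261 and 3053, lowest on array 1 and highest on array 3. The brighter Asb4 probe set read 5.28 on each of these arrays, its highest knockout values. The second Asb4 probe set read 5.36 on array 1 and 5.01 on array 3. No order of these arrays was tested. Of 5 adipocyte markers, 2 fell and 1 rose (40% and 20%, beside 16.0% and 17.0% of all genes). Fabp4 read -0.72 (SE 0.09), Lep -1.88 (SE 0.35) and Retn, which rose, 1.06 (SE 0.21). Adipoq (-0.45, SE 0.28) was among the 2 that did not pass. The sums were 14201 to 15585 and 7643 to 10646, and Fabp4 was the brightest of the 5. Of 5 Schwann cell markers, 1 fell and 0 rose (20% lower, beside 16.0% of all genes). Mbp, which fell, read -1.73 (SE 0.31, and -0.91 with its probe sets averaged). The other 4 did not pass: S100b read -0.34 (SE 0.13, and -0.18 averaged), Ngfr -0.15, Pmp22 -0.04 and Sox10 0.08. The Schwann cell sums were 2001 to 2502 in wild type and 1546 to 1887 in knockout. The part of these cell types in the Asb4 value was not tested. No marker read 0, since the lowest intensity on any array was 11.34.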

How the data were processed

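Per the submitters' processing notes the authors used RMA, which corrects background, normalizes arrays to each other and summarises each set's probes; no software or version is stated there. The deposited values were 1 linear intensity for each probe set on each array, so log2(value + 1) was taken. Array medians lay between 139.1 and 143.2. Arrays hold no sequencing depth, and their number limits the precision. Of 22690 probe sets, 64 controls were left out. Probe sets with 1 symbol in the platform annotation (20380) gave 12393 genes, whose symbols were updated through RefSeq (12369 matched). The brightest probe set stood for a gene.

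Knockout minus wild type was fitted with limma 3.58.1 in R 4.3.3 (lmFit, eBayes, two-sided) over all genes, and separately over 22626 probe sets, with Benjamini-Hochberg adjustment and a threshold of 0.05. The script was tested on simulated data. Groups came from the sample titles. The labels do not say that arrays are separate animals, so a p-value here reflects only how these samples spread, which may be technical. Duplicated arrays were looked for, and any 2 arrays shared at most 1819 equal values. Scan dates were not used here.

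The 10 genes and all lists were chosen with earlier results of these data known. Named beside them were Yy1; listed imprinted genes and neighbours past the threshold with a change of at least 1 (up to 6 in each direction) and up to 4 with a mean above the median gene's and the smallest change; the 5 genes nearest in pattern to Peg3 and to Asb4; and up to 2 markers per cell type with the smallest p. Slc25a29, Slc25a47, Zim3, Pon2 and Copg2 are named for their position. Igf2r, Grb10, Retn, Adipoq, Ngfr, Pmp22, Sox10, Cd81, Tssc4, Ndn and H13 were named after their values were seen. Promoters come from RefSeq (GRCm38). Table columns outside this series numbered 0. Alternatives tried were a pseudocount of 32, median centring, quantile normalization, a level filter, averaged probe sets, adjustment over probe sets, trend and robust variance, a replicate block and leaving out each array.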

Additional observations from a re-analysis of the deposited data

Results flagged for a closer look

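In the 4 knockout arrays, 1 array stood far from the others in 5 of 68 probe sets looked at, by Dixon's test at the 95% level, which chance passes in about 1 in 20 groups. The Meg3 probe set 1436057_at read 7.64 on knockout array 4 and 7.35 on the other knockout arrays, which held the same value in every digit. Col1a1 was highest on knockout array 3, at 9.96, beside 9.27 to 9.38 on the others. Gsn was lowest on knockout array 1, at 13.67, beside 13.82 to 13.83. S100b was lowest on knockout array 3, at 5.15, beside 5.47 to 5.49. C1qtnf3, one of the genes nearest to Peg3 in pattern, was lowest on knockout array 1, at 7.04, beside 7.79 to 7.95.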

How the results depend on the processing

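In every setting that tested them, the changes of the 10 imprinted genes kept their side of the threshold. Over all settings the change of Peg3 ranged from 3.25 to 3.57, that of Meg3 from 1.13 to 1.84, that of Rian from 0.63 to 1.05 and that of Asb4 from -3.07 to -2.22. With only genes above the median level tested, 0 of the 10 were called lower and 2 higher, since Asb4 and Rian were not among those tested. Leaving out 1 array gave 7 to 12 neighbours that rose and 14 to 17 that fell, 9 to 14 imprinted genes outside the clusters that rose and 3 to 4 that fell, and a Yy1 change of -1.12 to -0.91. CGCCAT in place of AANATGGC moved the share of promoters to 8.93%. Deviations of arrays sharing the numbers 1 to 3 correlated at 0.03, -0.13 and 0.02, which with so few arrays cannot exclude pairing. The replicate block left out knockout array 4, which has no wild type array of its number. With this block Yy1 changed by -1.0, as it did without knockout array 4 and without the block. In the block fit 3 of the 10 were called higher and 1 lower, and 10 of 44 imprinted genes outside the clusters rose. Of single genes named by the rules above, Gsn lost its call with its probe sets averaged (0.23, limma adjusted p = 0.0669). S100b gained one without wild type array 2 (-0.47, limma adjusted p = 0.0273). RMA without detection calls limits what dim probe sets such as those of Usp29, Zim1 and Peg10 can show.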
